A study of Mus musculus with 16 samples.

Results

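The genes described are the splicing factor and hnRNP genes of the mouse, taken as the protein-coding RefSeq genes whose symbols begin with Srsf, Snrp, Hnrnp, Sf3a or Sf3b. The rule found 53 of the 21883 protein-coding genes placed on the chromosomes of the mm10 assembly: 11 SR proteins, 21 hnRNP genes, 8 genes of the Sm ring, 4 further U1 and U2 snRNP proteins and 9 subunits of the SF3A and SF3B complexes. The 5 non-coding loci with such symbols were left out. Histone marks were mapped by ChIP-seq in mouse embryonic stem cells (mESCs) of the C57BL/6 strain that were either Mettl14 control or Mettl14 knockout cells, the latter labelled CKO. METTL14 is known as the RNA-binding partner of METTL3, the enzyme that methylates adenosines of RNA (N6-methyladenosine, m6A). Both genotypes were grown in serum medium with LIF, CHIR99021 (a GSK3 inhibitor) and PD0325901 (a MEK inhibitor), and no further treatment separates them. The labels give neither the allele, the way of deletion, nor whether a line is 1 clone. For each of the 3 marks H3K4me3, H3K27ac and H3K27me3 there were 2 control and 2 knockout libraries, each with its own peak list.

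Pre-mRNA splicing is carried out by the spliceosome, in which the U1 snRNP reads the 5′ splice site and the U2 snRNP the branch point. Most U snRNAs carry a ring of Sm proteins, and SF3A and SF3B are the parts of the U2 snRNP that clamp it onto the branch point. SR proteins bind exons and mostly favour their inclusion, while hnRNP proteins coat nascent RNA and often act against them. The genes are expressed in nearly all cells, and many are known to hold CpG-rich promoters. H3K4me3 marks active and poised promoters, H3K27ac active promoters and enhancers, and H3K27me3 chromatin repressed by Polycomb.

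The promoters below show what such starts look like for members of different H3K4me3 pattern. They were chosen because their upstream bases lie outside every annotated gene. The listed start of Snrpe and the first listed start of Hnrnpr carried H3K4me3 peaks in the knockout lists alone, and the start of Hnrnpab carried them in all 4 lists. Each line gives the 250 bases before the listed RefSeq start in GRCm38.p6, 5′ to 3′ on the strand of the gene. Capitals mark matches on either strand to CCAAT (the box bound by NF-Y), to GGGCGG (the GC box bound by SP1) and to CCGGAA (the core bound by ETS factors).
Snrpe, chr1:133610281-133610530, minus strand: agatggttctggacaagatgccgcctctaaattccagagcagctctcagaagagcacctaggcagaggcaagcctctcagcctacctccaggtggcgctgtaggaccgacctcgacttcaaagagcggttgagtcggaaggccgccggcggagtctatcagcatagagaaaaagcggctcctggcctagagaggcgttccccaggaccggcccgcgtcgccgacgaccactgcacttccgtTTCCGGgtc
Hnrnpr, chr4:136310692-136310941, plus strand: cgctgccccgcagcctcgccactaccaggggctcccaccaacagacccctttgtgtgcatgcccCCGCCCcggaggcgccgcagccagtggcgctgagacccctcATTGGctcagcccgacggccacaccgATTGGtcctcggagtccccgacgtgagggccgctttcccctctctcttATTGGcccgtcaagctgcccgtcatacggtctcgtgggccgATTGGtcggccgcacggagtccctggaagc
Hnrnpab, chr11:51606882-51607131, minus strand: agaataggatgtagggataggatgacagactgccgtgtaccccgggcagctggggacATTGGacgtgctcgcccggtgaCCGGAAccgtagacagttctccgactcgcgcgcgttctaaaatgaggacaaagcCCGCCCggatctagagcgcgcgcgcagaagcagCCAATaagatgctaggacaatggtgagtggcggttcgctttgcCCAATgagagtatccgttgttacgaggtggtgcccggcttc

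The RefSeq promoter table lists a start for 47 of the 53 members, 64 starts in all, and 21262 starts over all protein-coding genes. In the 250 bases before the start, a GC box was found at 65.6% of member starts and 42.6% of all starts. The ETS core was found at 43.8% and 15.0%, the CCAAT box at 43.8% and 35.4%, and the TATA box TATAAA at 10.9% and 11.6%. The median number of CpG pairs was 19 against 10, and the median G and C content 60.6% against 55.6%. Both strands were searched and matches of different motifs may overlap. Listed starts of 1 gene can lie within a few bases of each other, so these shares are descriptions and are not tests.

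Gene positions are RefSeq spans on GRCm38.p6, the mm10 assembly. A gene was read as called in a list when a peak touched a window within 1 kb of either end of its RefSeq span. Width is that of the widest such peak, since position and width are all that the lists hold. A gene is named knockout-only where both knockout lists called it and the control lists did not, and control-only in the reverse case. The lists held 2431 to 15541 peaks, and the depth behind them is unknown. The H3K4me3 lists of the knockout cells (8131 and 8055 peaks) were longer than those of the control cells (2859 and 2431), so a call in the knockout alone is common over the whole genome. Of 10 markers of mESCs, 8 carried H3K27ac in each of its lists. H3K4me3 was called at 6 and 4 of the 10 in the control lists and at 9 and 9 in the knockout lists. The marker without it, Esrrb, had H3K27me3 in the knockout lists alone. Of 8 markers each of feeder fibroblasts, trophectoderm and primitive endoderm, 0 to 3 had an H3K4me3 or H3K27ac call in any 1 list. The trophectoderm markers Eomes (H3K4me3), Tfap2c and Gata3 (both H3K27ac) were knockout-only. Of the 8 trophectoderm markers, 5 had no H3K4me3 call and 4 no H3K27ac call in any list. H3K27me3 was called at Eomes and Cdx2 in all 4 lists, and at Gata3 it was knockout-only as well. Mettl14 had no H3K4me3 call in the control lists and peaks of 1074 and 1295 bp in the knockout lists, which does not check the deletion. By the labels, the H3K27ac libraries were made with the H3K4me3 antibody, and the mark in their titles was used here. The labels do not say whether replicates are separate cultures, so p-values refer only to these samples. Each is the share of label assignments that gave an absolute difference at least as large. Peaks from bulk chromatin cannot tell more marked cells from more mark per cell.

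H3K4me3 was called at far more of these genes in the knockout lists. The control lists called 19 and 19 of the 53 members, and the knockout lists 44 and 45. The means were 19 ± 0 against 44.5 ± 0.707 members (SD, n = 2 each), a difference of 25.5 members. Each knockout list called more members than either control list, and the gap was larger than the spread within either pair (exact two-sided permutation p = 0.333, the smallest that 2 lists against 2 allow). As shares these are 35.8% in both control lists and 83.0% and 84.9% in the knockout lists, where over all protein-coding genes the shares were 8.01%, 8.08%, 30.8% and 30.9%. H3K4me3 at gene ends was thus found at more of the members than of all genes in each of the 4 lists. When each list was cut to as many of its widest peaks as the shortest list holds, the difference was 13 members.

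**Figure D1:**
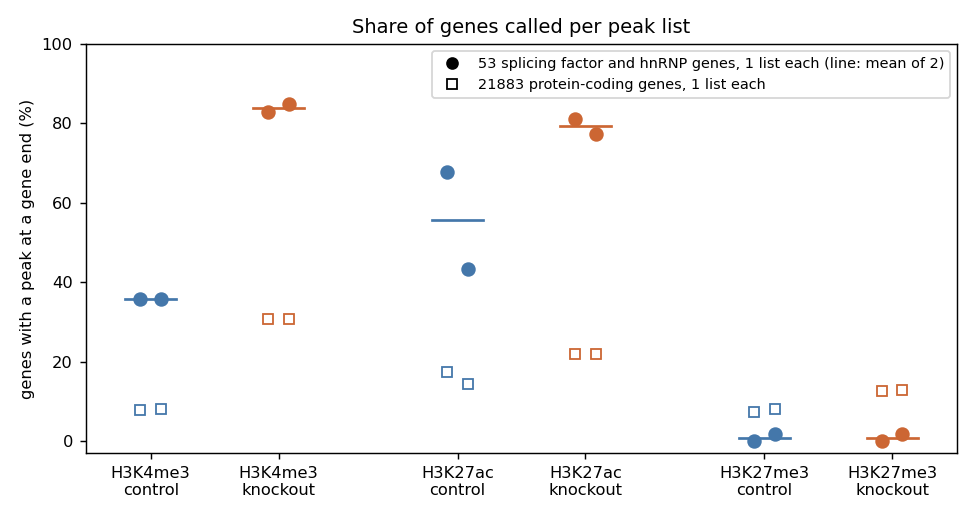
Percent of genes with a peak at a gene end (vertical axis) in each of the 12 peak lists, by mark and condition. Filled circles are the 53 splicing factor and hnRNP genes with a line at the mean of 2 lists, open squares all 21883 protein-coding genes; the circles lie above the squares for H3K4me3 and H3K27ac and below them for H3K27me3.

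The control lists overlapped little in which members they called. Of the 29 members called by at least 1 control list (54.7% of members, against 13.0% of all genes), 9 (31.0%) were called by both, against 23.5% of all genes so called. In the knockout 40 of 49 (81.6%) were called by both, against 63.4% of all genes. An absent control call at a single member is therefore a weak statement, and the members fall into graded classes. Both knockout lists called 40 members (75.5%, against 23.9% of all genes). Of these, 8 were called in all 4 lists (15.1% of members, against 2.9% of all genes), 17 were called in 1 control list besides (32.1%, against 7.53%), and 15 were knockout-only. Both control lists called 9 members (17.0%, against 3.07% of all genes), the 8 and Sf3b3.

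**Figure D2:**
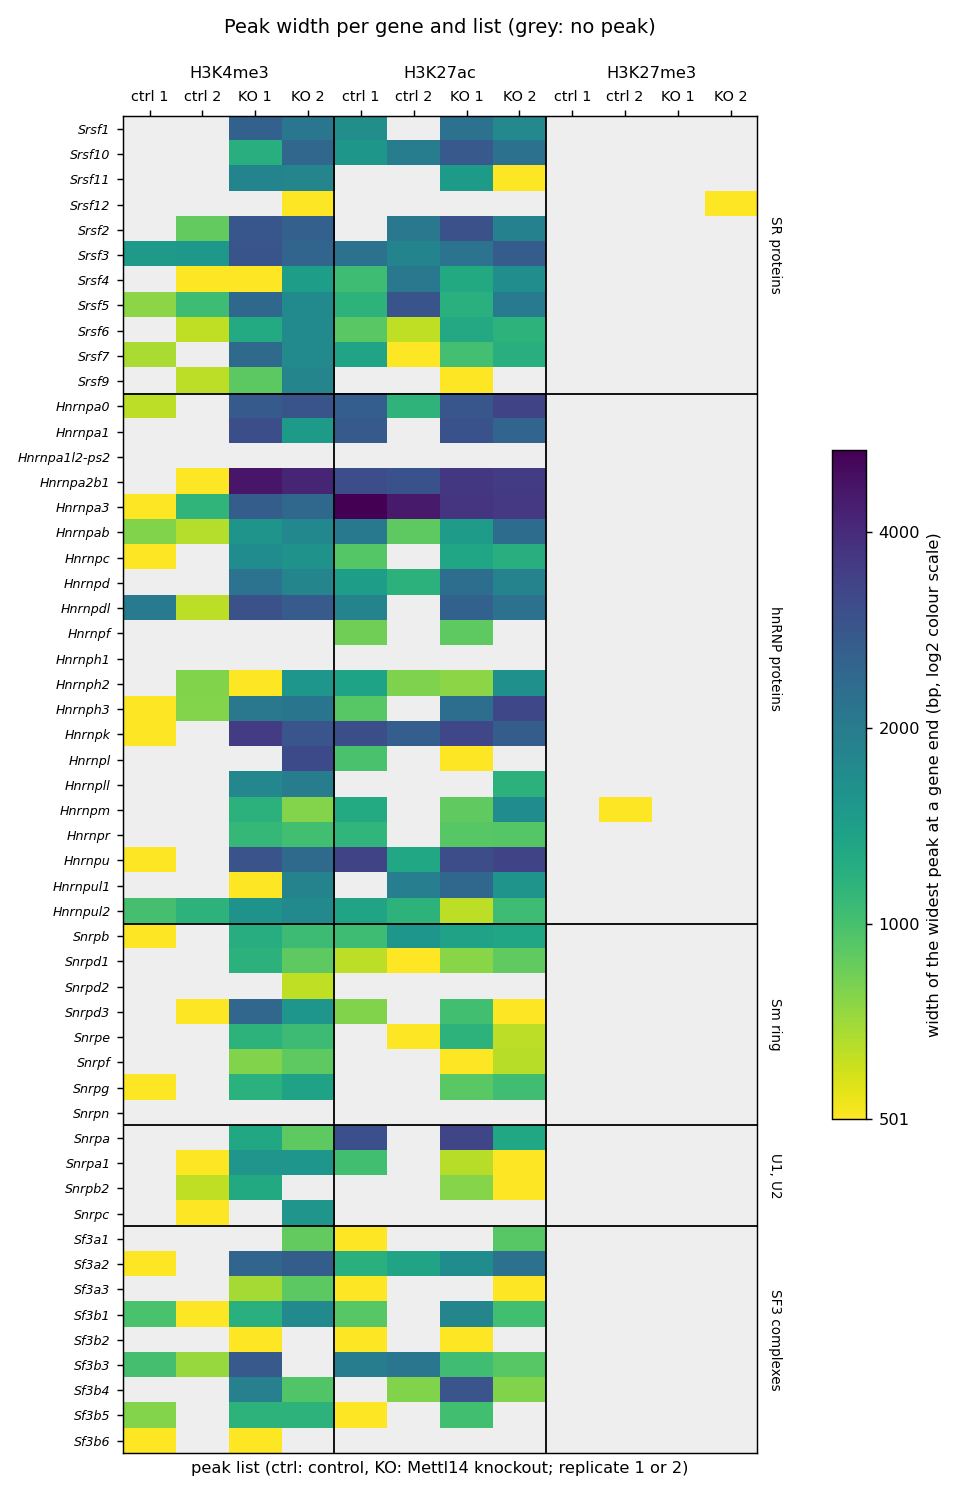
Width in bp of the widest peak at a gene end (colour, log2 scale) for the 53 members (rows, by family) in the 12 lists (columns); grey means no peak. Both knockout H3K4me3 columns hold more filled cells than either control column in each family except the U1 and U2 snRNP proteins, and 2 cells of the H3K27me3 columns are filled.

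Nearly all SR protein genes carried H3K4me3 in the knockout lists. Of 11, the control lists called 3 and 6 and the knockout lists 10 and 11. Srsf3 (chromosome 17, 29032660 to 29043372), an SR protein that also acts in mRNA export, had 1483 and 1518 bp in the control lists and 2898 and 2478 bp in the knockout lists. Srsf5 had 753 and 1047 bp against 2396 and 1723 bp. These were the 2 SR genes called in all 4 lists, and at both the knockout widths lay above the control widths. Srsf2, Srsf4, Srsf6, Srsf7 and Srsf9 were called in both knockout lists and 1 control list. Srsf12 had 1 peak of minimum width (501 bp) in knockout replicate 2 alone.

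Srsf1, Srsf10 and Srsf11 were knockout-only by the window rule. Srsf11 had 1842 and 1823 bp in the knockout lists. Srsf10 had 1207 and 2439 bp. No control peak overlapped the knockout peaks of these 2 genes. Srsf1 (chromosome 11, 88046499 to 88053757), the founding SR protein, had 2571 and 2104 bp in the knockout lists, and its pattern was different. Control peaks of 1502 and 1033 bp lay inside the gene, under the knockout peaks and just beyond the window at the end of the span. Measured at its listed start, Srsf1 was called in all 4 lists.

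Among the 21 hnRNP genes the control lists called 9 and 7 for H3K4me3, and the knockout lists 17 and 18. The 5 called in all 4 lists were Hnrnpa3, Hnrnpab, Hnrnpdl, Hnrnph3 and Hnrnpul2. Hnrnpa3 (chromosome 2, 75659105 to 75669407) had 501 and 1135 bp in the control lists and 2652 and 2413 bp in the knockout lists, a 3.35-fold difference. Hnrnph3 had 501 and 777 bp against 2066 and 2121 bp (3.36-fold). Hnrnpdl had 2002 and 634 bp against 2977 and 2711 bp (2.52-fold). Its 2 control peaks did not overlap, as the 634 bp peak lay beyond the gene end, and its windows overlap those of Enoph1. At the listed start control replicate 2 had another peak, of 628 bp.

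Smaller differences were found at Hnrnpab and Hnrnpul2. Hnrnpab had 784 and 654 bp in the control and 1574 and 1770 bp in the knockout lists (2.33-fold), and Hnrnpul2 had 1003 and 1159 bp against 1592 and 1735 bp (1.54-fold). At each of these 5 genes both knockout widths exceeded both control widths. Fold changes of width are ratios of geometric means over 2 lists.

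Hnrnpa2b1 and Hnrnpc encode proteins that have been linked to the reading of m6A or of m6A-dependent RNA structure. Hnrnpa2b1 (chromosome 6, 51460434 to 51470048) had no H3K4me3 peak in control replicate 1, one of 501 bp in control replicate 2, and 4634 and 4163 bp in the knockout lists. These were the widest H3K4me3 peaks at any member. The Hnrnpa2b1 windows overlap those of its neighbours Cbx3 and Nfe2l3, so the peak cannot be assigned to 1 gene. Hnrnpc (chromosome 14, 52073377 to 52104039) had 501 bp in control replicate 1, no peak in control replicate 2, and 1683 and 1584 bp in the knockout lists. Hnrnpa0, Hnrnph2, Hnrnpk and Hnrnpu were also called in both knockout lists and 1 control list by the window rule. Measured at its listed start, Hnrnpu was called in all 4 lists, with 1516 and 1153 bp in the control and 2922 and 2365 bp in the knockout.

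The 6 knockout-only hnRNP genes were Hnrnpa1, Hnrnpd, Hnrnpll, Hnrnpm, Hnrnpr and Hnrnpul1. Hnrnpd (AUF1, which binds AU-rich elements) had 2158 and 1820 bp. Hnrnpll, a regulator of alternative splicing in lymphocytes, had 1781 and 1956 bp. Hnrnpa1, a repressor of splice sites that acts against SRSF1, had 3016 and 1473 bp. Hnrnpr, whose promoter is printed above, had 1102 and 1022 bp. At Hnrnpa1, Hnrnpll and Hnrnpul1 a peak of 1 control list overlapped a knockout peak of the gene while lying beyond the window, with widths of 634, 501 and 1481 bp. Hnrnpl, which binds CA repeats, was called at its ends in knockout replicate 2 alone. At its listed start inside the span it had 639 bp in control replicate 2, and 1379 and 3141 bp in the knockout.

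Of the 8 Sm ring genes, the control lists called 2 and 1 and the knockout lists 6 and 7, and none was called in all 4 for H3K4me3. The median width of the called Sm genes was 1171 and 1053 bp in the knockout lists, against 2066 and 1908.5 bp for hnRNP genes and 2094.5 and 1814 bp for SR genes. The SF3 genes were about as narrow as the Sm genes, at 1172 and 1054 bp, and the U1 and U2 proteins stood at 1290 and 1542 bp. Snrpd1, Snrpe and Snrpf were knockout-only. Snrpe had 1153 and 1053 bp, Snrpd1 had 1163 and 897 bp, and Snrpf had 784 and 903 bp. Snrpb, Snrpd3 and Snrpg were called in both knockout lists and 1 control list, and Snrpd2 in 1 knockout list.

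Of the remaining snRNP genes, Snrpa (the A protein of the U1 snRNP) was knockout-only with 1290 and 902 bp. Snrpa1 (the A′ protein of the U2 snRNP) had no peak in control replicate 1, 501 bp in control replicate 2, and 1551 and 1542 bp in the knockout lists. Snrpb2 (the B″ protein of U2) and Snrpc (the C protein of U1) were each called in control replicate 2 and in 1 knockout list, so their calls do not separate the genotypes.

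The SF3 genes were called unevenly between replicates. The control lists called 5 and 2 of the 9 for H3K4me3 and the knockout lists 8 and 6. Sf3b1 (chromosome 1, 54985169 to 55027501), the subunit at the branch point helix, was called in all 4 lists with 990 and 501 bp in the control and 1189 and 1736 bp in the knockout (2.04-fold). Sf3a3 and Sf3b4 were knockout-only, Sf3b4 with 1904 and 955 bp. Sf3a2 and Sf3b5 were called in both knockout lists and 1 control list. Sf3b3, at chromosome 8, 110810491 to 110846806, was called in both control lists (1004 and 722 bp) and in knockout replicate 1 (2763 bp), while knockout replicate 2 held no peak there. Sf3a1 and Sf3b2 were called in 1 knockout list each, and Sf3b6, which contacts the branch adenosine, in 1 list of each condition.

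In all, 15 of 53 members (28.3%) were knockout-only for H3K4me3, where 13.5% of all protein-coding genes were, and 0 were control-only, against 0.0274% of all genes. Read against genes that both knockout lists called, the order was the other way: 15 of 40 members (37.5%) and 56.5% of all genes lacked a control call. The count depended on how a control call was defined. Counting control peaks that overlap a knockout peak anywhere left 11 members, and 4 of 15 members (26.7%) had such a peak against 2.91% of all knockout-only genes. Of the 47 members with a listed start, 9 were knockout-only within 1 kb of the start, as were 2505 of the 17491 genes with one. With peaks of minimum width left out the count was 23, beside 3132 of all genes where 2958 were counted before. At equal list length it was 6, beside 653 of all genes (Hnrnpa1, Hnrnpd, Hnrnpll, Srsf1, Srsf10 and Srsf11 among the members). Without control replicate 1 it was 24, beside 3771 of all genes, and without control replicate 2 it was 23, beside 3792.

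Widths were larger in the knockout at the members called in all 4 lists. Over these 8 genes the median was 887 and 912 bp in the control and 2231 and 1945.5 bp in the knockout lists, a log2 difference of 1.22 (2.33-fold, exact two-sided permutation p = 0.333, the smallest possible). All 8 had both knockout widths above both control widths, as had 93.1% of the 634 genes called in all 4 lists. Over those 634 genes the log2 difference was 1.12, so the members' widths changed about as those of all such genes. Counting absent calls as 0 bp, the knockout widths lay above the control widths at 38 of 53 members (71.7%) and at 22.9% of all genes. The reverse was found at 0 members and at 0.032% of all genes.

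The peaks also differed in where they lay. At the 38 members with 1 listed start, H3K4me3 peaks of the control lists began inside the gene at the median, while those of the knockout lists reached over the start. The upstream edge of the widest peak at the start stood at a median of -93.5 bp (18 members) and -170.5 bp (20 members) in the control lists, a negative value being downstream of the start. In the knockout lists it stood 316 bp (33 members) and 304 bp (34 members) upstream. The mean difference was 442 bp (exact two-sided permutation p = 0.333, the smallest possible). Over all genes with 1 listed start the upstream edge moved the same way, from -59 and -70 bp in the control to 171 and 162.5 bp in the knockout. The downstream edge of the members was at 907 and 1038 bp in the control and at 1276 and 1387 bp in the knockout lists.

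The start base itself was covered at 6 of 18 and 3 of 20 called members in the control lists (33.3% and 15.0%). In the knockout lists it was covered at 31 of 33 and 32 of 34 (93.9% and 94.1%). Over all genes with 1 listed start the shares were 25.7% and 26.2% in the control and 70.6% and 69.8% in the knockout. Different members were called in each list, so the 9 with a peak at the start in all 4 lists were also taken alone. Their upstream edge was at 4 and -95 bp in the control and at 737 and 350 bp in the knockout lists, and the start was covered at 5 and 3 of 9 against 9 and 8 of 9. Over the 471 genes with a peak at the start in all 4 lists it was covered at 25.5% and 29.9% against 90.2% and 88.1%, with the upstream edge at -71 and -66 bp against 317 and 293 bp. At Hnrnpa3 the control peaks began 585 and 95 bp inside the gene, and the knockout peaks began 810 and 1005 bp before it. A peak that is wider on both sides covers more starts, and the part of width in this difference was not tested. H3K27ac peaks already covered the start in control cells, at 88.9% and 77.8% of called members against 93.5% and 84.4% in the knockout. Over all genes the shares were 54.0% and 51.7% against 61.9% and 63.4%. Their upstream edge stood at 345 and 383 bp in the control and at 352 and 495 bp in the knockout.

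**Figure D3:**
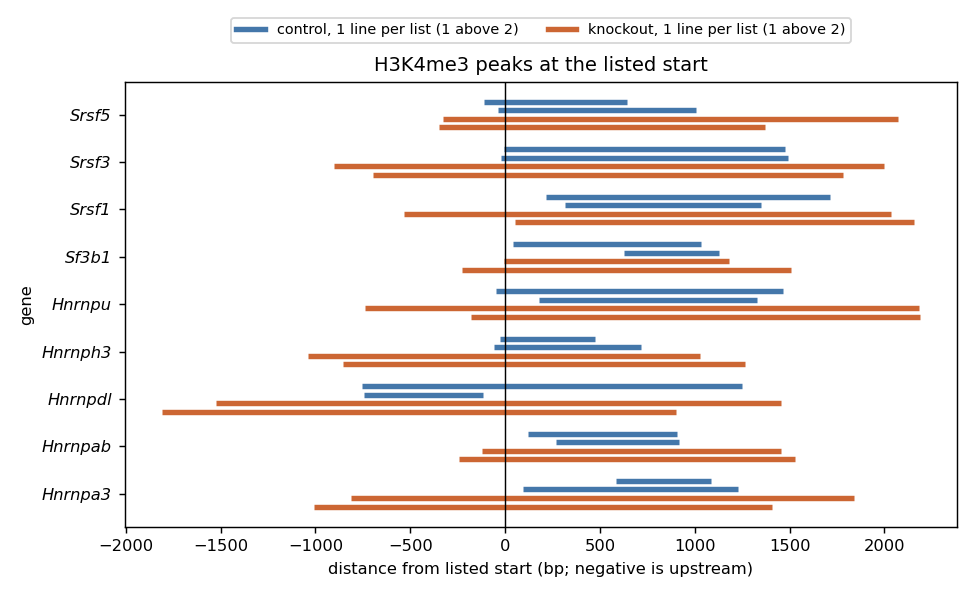
Extent of the H3K4me3 peak (horizontal axis, bp from the listed start, negative upstream) at the 9 members with a peak there in all 4 lists; blue lines are the 2 control lists and orange lines the 2 knockout lists. Of the 18 blue lines 8 cross 0, and of the 18 orange lines 17 do; both Hnrnpdl control peaks reach upstream of 0.

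**Figure D4:**
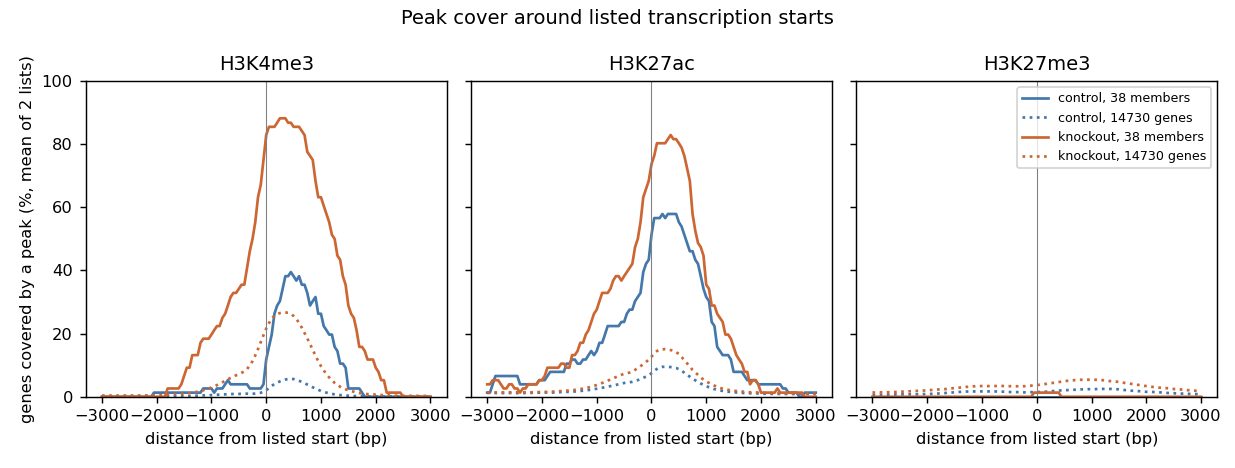
Percent of genes covered by a peak (vertical axis, mean of 2 lists) against distance from the listed start in bp, for 38 members (solid) and 14730 genes (dotted) with 1 listed start. For members H3K4me3 cover rises to 39.5% at 450 bp in the control and 88.2% at 250 bp in the knockout, H3K27ac to 57.9% and 82.9%, and H3K27me3 stays at or below 1.32%.

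H3K27ac differed less, and the size of the difference depended on which control list was used. The control lists called 36 and 23 of 53 members and the knockout lists 43 and 41, or 67.9%, 43.4%, 81.1% and 77.4%. Over all genes the shares were 17.4%, 14.4%, 22.1% and 22.0%. The means were 29.5 ± 9.19 against 42 ± 1.41 members (SD, n = 2 each), a difference of 12.5 (exact two-sided permutation p = 0.333, the smallest possible). Control replicate 2 has the shortest H3K27ac list, and without it the difference was 6 members. Without control replicate 1 it was 19 members. Among the 24 members whose windows touch no other gene's window the difference was 3.5, and the lists of the 2 conditions overlapped (exact two-sided permutation p = 0.667).

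Acetylation was called in all 4 lists at 19 members (35.8%, against 6.91% of all genes), the same 19 that both control lists called (against 9.08% of all genes). The 19 were 9 hnRNP genes (Hnrnpa0, Hnrnpa2b1, Hnrnpa3, Hnrnpab, Hnrnpd, Hnrnph2, Hnrnpk, Hnrnpu and Hnrnpul2), 6 SR genes (Srsf3, Srsf4, Srsf5, Srsf6, Srsf7 and Srsf10), Snrpb, Snrpd1, Sf3a2 and Sf3b3. At Hnrnpa2b1 the widths were 3063 and 2954 bp in the control and 3636 and 3517 bp in the knockout lists, so the groups did not overlap. At Hnrnpk, a poly(C)-binding hnRNP, they were 3028 and 2629 bp against 3239 and 2649 bp, and the groups overlapped.

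The widths of these 19 moved both ways. The largest ratios were at Hnrnpa0 (2642 and 1144 bp against 2846 and 3272 bp, 1.76-fold), Srsf6 (916 and 626 bp against 1277 and 1160 bp, 1.61-fold) and Hnrnpd (1425 and 1171 bp against 2277 and 1861 bp, 1.59-fold). Hnrnpu, Sf3a2 and Snrpd1 followed with 1.53-fold, 1.52-fold and 1.47-fold. At Hnrnpu the groups overlapped, since 3293 bp in control replicate 1 lay above both knockout widths of 3056 and 3288 bp.

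The 3 smallest ratios were below 1. Hnrnpa3 had the widest acetylated peaks of any member in the control, 5337 and 4516 bp, against 3691 and 3609 bp in the knockout (0.743-fold). At Sf3b3 the widths were 1959 and 2110 bp against 1034 and 930 bp (0.482-fold), and at Hnrnpul2 1339 and 1156 bp against 632 and 1046 bp (0.654-fold). At Hnrnpa3 and Hnrnpul2 H3K4me3 was wider in the knockout where H3K27ac was narrower. Knockout widths lay wholly above control widths at 7 of the 19 members (36.8%, against 36.0% of the 1513 genes called in all 4 lists) and wholly below at 3 (15.8%, against 5.88%). The difference in median log2 width, knockout minus control, was 0.31 over members (exact two-sided permutation p = 0.333, the smallest possible). Over all such genes it was 0.35. Over members it was 0.07 without knockout replicate 2 and 0.55 without knockout replicate 1.

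Counting absent calls as 0 bp, knockout H3K27ac widths lay above control widths at 17 of 53 members (32.1%, against 7.38% of all genes) and below them at the same 3 (5.66%, against 1.18%). Both knockout lists called 38 members (71.7%, against 14.4%), and at least 1 control list called 40 (75.5%, against 22.7%). Knockout-only H3K27ac was found at 4 members (7.55%, against 2.87% of all genes), and control-only H3K27ac at 0 (against 0.494%). The 4 were Snrpg (916 and 1035 bp), Snrpb2 (767 and 501 bp), Snrpf (501 and 648 bp) and Srsf11 (1467 and 501 bp). Since many members lack a call in control replicate 2, the count rests on control replicate 1: it was 15 without that list, and 8 without control replicate 2. Srsf11 has a second listed start inside the gene with H3K27ac in control replicate 2, so it is not knockout-only there. Snrpe is the reverse, since its single control peak (501 bp) lies at the far end of the gene, and at its start H3K27ac was called in the knockout lists alone.

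Another 15 members (28.3%, against 4.62% of all genes) were called in both knockout lists and 1 control list, namely Hnrnpa1, Hnrnpc, Hnrnpdl, Hnrnph3, Hnrnpm, Hnrnpr, Hnrnpul1, Sf3b1, Sf3b4, Snrpa, Snrpa1, Snrpd3, Snrpe, Srsf1 and Srsf2. No H3K27ac was called at the ends of Sf3b6, Snrpc, Snrpd2, Srsf12, Hnrnph1, Snrpn and Hnrnpa1l2-ps2, which is 13.2% of the members where 65.4% of all genes had none.

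The 2 marks came together at most members in the knockout lists. Both knockout lists called H3K4me3 and H3K27ac at 36 members (67.9%, against 10.8% of all genes), while both control lists called them at 6 (11.3%, against 1.86%). The 6 were Hnrnpa3, Hnrnpab, Hnrnpul2, Sf3b3, Srsf3 and Srsf5. Within single control lists, 19 and 12 members had H3K27ac without H3K4me3, and in the knockout lists 2 and 2 had. Of the 15 members with knockout-only H3K4me3, 12 had H3K27ac in at least 1 control list (80.0%, against 41.3% of all knockout-only genes), and Hnrnpd, Snrpd1 and Srsf10 had it in both (against 17.0% of those genes). In both knockout lists 13 of the 15 had it (86.7%, against 34.7%). Of the 40 members with H3K4me3 in both knockout lists, 36 had H3K27ac in both (90.0%, against 45.1%). At most of the 15 knockout-only members acetylation was thus called in at least 1 control list. In both control lists it was called at only 3 of them. At 4 of the 15 a control H3K4me3 peak beyond the window overlapped a knockout peak, so control H3K4me3 was not absent there. The widest peaks of the 2 marks overlapped at 37 of 41 members with both in knockout replicate 1 and at 39 of 39 in replicate 2. In the control lists they overlapped at 16 of 17 and at 10 of 11 members with both, so overlap was not particular to the knockout. These overlaps, and the counts of H3K27ac without H3K4me3, were not taken over all genes.

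H3K27me3 was nearly absent from these genes in both genotypes. At 51 of the 53 members no list held a call. A call in at least 1 list was found at 3.77% of members and 20.3% of all genes. The control lists called 0 and 1 members and the knockout lists 0 and 1, a difference of 0 (exact two-sided permutation p = 1). No member was knockout-only or control-only, where 2.43% and 0.315% of all genes were. The 2 exceptions were peaks of minimum width. Hnrnpm had 501 bp in control replicate 2 (chromosome 17, 33645092 to 33645592), at the end of the gene away from its listed start, and Srsf12 had 501 bp in knockout replicate 2 at its start (chromosome 4, 33209210 to 33209710). The Srsf12 peak overlaps the single H3K4me3 peak of that gene in the knockout replicate of the same number.

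Another 4 members (7.55%, against 61.4% of all genes) lacked an H3K4me3 call at the gene ends throughout. At 3 of them H3K4me3 was called at listed starts inside the span. Hnrnph1 has 5 listed starts inside its span, and at them H3K4me3 peaks of 828 and 759 bp in the control and 2518 and 1434 bp in the knockout lists. Hnrnpf has a start inside the gene with 900 and 1522 bp against 2813 and 2256 bp.

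Snrpn encodes SmN, the neural relative of SmB, and is imprinted and expressed from the paternal copy. Its RefSeq span (chromosome 7, 59982495 to 60450177) has 4 listed starts. At the start nearest its 3′ end H3K4me3 was called in control replicate 2 (633 bp) and, with 929 and 955 bp, in the knockout lists, and H3K27ac in control replicate 1 (642 bp) and knockout replicate 2 (796 bp). The other Snrpn starts had no H3K4me3 peak. Hnrnpa1l2-ps2, which the table holds as protein-coding although its symbol is that of a pseudogene, had no peak of any mark.

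Other parts of the splicing machinery, like protein-coding genes as a whole, were called more often for H3K4me3 in the knockout lists. Of 97 other splicing genes in 5 lists, H3K4me3 was called at 32 and 37 in the control and at 78 and 81 in the knockout lists. Over all genes the shares were 8.01% and 8.08% in the control and 30.8% and 30.9% in the knockout lists. Knockout-only were 29 of them (against 13.5% of all genes), 20 were called in all 4 lists (against 2.9%) and 0 were control-only (against 0.0274%). The specific U snRNP and tri-snRNP proteins had the most knockout-only members (13 of 26, Snrnp70, Snrnp48, Snrnp200 and Prpf3 among them) and 1 in all 4 lists, Lsm3. The SR-like factors and their kinases had the most in all 4 lists (8 of 18, among them Tra2a, Tra2b, Srrm1 and Rbm39) and 2 knockout-only, Acin1 and Luc7l. Of the genes for 3′ splice site and branch point recognition 4 of 12 were knockout-only (U2af1, Puf60, Rbm17 and Cherp), of the Prp19 complex and helicases 6 of 17, and of other RNA-binding regulators 4 of 24. These differences between lists were not tested. For H3K27ac the control lists called 63 and 46 of the 97 and the knockout lists 64 and 67. The H3K27ac shares over all genes were 17.4% and 14.4% in the control and 22.1% and 22.0% in the knockout lists. The Prp19 complex and helicases did not follow, with 10 and 5 H3K27ac calls in the control against 6 and 5 in the knockout. For H3K27ac 7 of the 97 were knockout-only (against 2.87% of all genes) and 37 were called in all 4 lists (against 6.91%). For H3K27me3 94 had no call, as had 79.7% of all genes.

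Neighbouring genes limit these assignments. The windows of 29 members (54.7%) overlap those of another protein-coding gene, against 32.2% of all genes, as with Srsf2 and Mfsd11, Srsf7 and Gemin6, or Hnrnpa1 and Cbx5. A peak there belongs to both. Among the 24 members with windows of their own the difference for H3K4me3 was 9 members, and 5 were knockout-only (Hnrnpr, Sf3a3, Snrpd1, Snrpe and Srsf1). Of these, Srsf1 was called in all 4 lists at its listed start. Over all genes, shared windows included, 13.5% were knockout-only. The same count over genes with unshared windows was not made.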

How the data were processed

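The submitters' processing notes name build mm10 and the tools HOMER, SAMtools, Bowtie2 2.4.1, Trimmomatic 0.38 and CASAVA. How peaks were called, and whether inputs and spike-in chromatin entered, is not given in the sources used here. The authors deposited 1 BED list per library. The deposited score column holds 1 for every peak and was not used. The 4 input libraries were not analysed here, nor were the Mettl3 knockout cells that the series design names.

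Positions came from a RefSeq table of GRCm38.p6 (the mm10 assembly), without 13 protein-coding genes on no placed chromosome, and starts from a RefSeq promoter table covering 17491 genes. An overlap needed 1 bp. Values per list were compared by exact permutation of the genotype labels (two-sided, 6 assignments), and counts of genes were set beside the same counts over all protein-coding genes. The members, gene lists, motifs and tests were chosen with earlier results of these data known. Every member is named. Widths are given for up to 10 knockout-only members of a mark, for the largest and smallest ratios in all 4 lists, and for members with H3K27me3, m6A links or imprinting. Further widths of members, the analysis of peak edges and the count of control peaks beyond the window were chosen after values were seen. Replicate numbers are not stated to pair samples. To check the counting step, peaks were planted in the H3K4me3 lists at genes with no peak and no other gene nearby. The counting recovered 100 of 100 planted genes per direction among 21883. Such genes leave out shared windows and differing replicates, so this checks the code and not the calls. Python 3.11.15, numpy 2.4.6 and pandas 2.3.3 were used.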

Additional observations from a re-analysis of the deposited data

How the results depend on the processing

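No difference in members called or median log2 width changed direction from that reported under any alternative run for H3K4me3 and H3K27ac. Nor did the difference in upstream edge, which was rerun for H3K4me3 alone. Those alternatives were windows of 500 bp and 2500 bp, listed starts, an overlap of 250 bp, peaks above minimum width, equal list length, unshared windows and each list left out (for the edge, peaks above minimum width, equal list length, members with a peak in all 4 lists and each list left out). For H3K27me3 the difference was 0, and each list left out gave -0.5 to 0.5 members. Knockout-only H3K4me3 members numbered 15 as reported, 9 at listed starts, 23 with peaks above minimum width, 6 at equal list length and 5 among unshared windows, and 16 to 24 with 1 list left out. Knockout-only H3K27ac members numbered 4 as reported, 2 with peaks above minimum width and 1 among unshared windows, and 5 to 15 with 1 list left out. Fewer lists require fewer calls or fewer absences, and unshared windows leave 24 members. With 1 list left out, control-only members numbered 0 to 1 for H3K4me3 and for H3K27me3, and knockout-only H3K27me3 members 0 to 1. Without H3K4me3 knockout replicate 1 the 1 control-only member is Sf3b3. The difference in median log2 width with 1 list left out ranged from 1.12 to 1.68 for H3K4me3 and from 0.07 to 0.55 for H3K27ac. The members behind it differ between settings.

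With the replicate block the differences were 25.5 members for H3K4me3 and 12.5 for H3K27ac, and 1.22 and 0.31 in log2 width (exact permutation p = 0.5 each, the smallest that 2 pairs allow). The block changed no value. Same-numbered lists did not deviate together: over genes called in all 4 lists the correlation of width deviations was -0.029 for H3K4me3, -0.023 for H3K27ac and 0.062 for H3K27me3. The depth of the libraries is unknown, so an absent peak is not shown to be an absent mark.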
